A study of Homo sapiens with 12 samples.

Results

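The genes described are the 87 protein-coding genes whose RNA lay lower in the libraries labelled ERK5-ko than in the parental libraries in each of the lines MDA-MB-231 and Hs-578T. They were chosen from 13737 protein-coding genes that reached 0.5 RPKM in at least 2 of the 12 libraries, out of 17665 protein-coding genes and 32152 genes listed. RPKM is the read count of a gene divided by the length of its model and by the reads of the library. A gene was kept when the mean of log2(RPKM + 0.5) over the ERK5-ko libraries was at least 0.5 under the parental mean in each line. The differences between ERK5-ko and parental libraries therefore define the genes, and they are given here as a description. The libraries labelled MEK5DD entered only the filter on low values, without which the same 87 genes were kept, and they are the data in which the 87 genes were then followed.

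MDA-MB-231 and Hs-578T are triple-negative breast cancer cell lines of mesenchymal appearance. Each line gave 2 parental libraries (passages 29 and 30 of MDA-MB-231, 83 and 84 of Hs-578T), 2 of cells labelled ERK5-ko (passages 7 and 8, and 8 and 9) and 2 of cells labelled MEK5DD (passages 10 and 11, and 8 and 9). The ERK5-ko cells were made with Cas9 guides against exons of MAPK7, the gene for ERK5, and grown from single sorted cells. The MDA-MB-231 ERK5-ko line is 1 clone, and which of the Hs-578T clones was sequenced, or whether clones were mixed, is not given in the sources used here. How the MEK5DD cells were made is not given in the sources used here either. MEK5DD is the usual name of a MEK5 with acidic residues at its activation sites, which keeps the kinase active. Replicates were consecutive passages of a culture, so p-values measure the spread between passages and not between independently made cultures. The fit pooled that spread over the 6 groups of both lines. By chi-square, replicates differed more in Hs-578T parental and MEK5DD libraries than in the other groups.

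ERK5 is a mitogen-activated protein kinase with a long carboxy-terminal tail that can act on transcription. MEK5, encoded by MAP2K5, phosphorylates ERK5 and no other known kinase of this family, and the MEF2 transcription factors are the best known substrates of ERK5. The cascade answers to growth factors, serum and mechanical stress, and in epithelial tumour cells it has been tied to adhesion, matrix and migration.

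The transcript of MAPK7 itself was no lower under the label ERK5-ko. In MDA-MB-231 it stood at 13.3 and 14.3 RPKM in parental and 16.3 and 17.8 RPKM in ERK5-ko libraries, and in Hs-578T at 14 and 16 against 17.8 and 18.1 RPKM. Neither difference passed (adjusted p = 0.0710 and 0.0624), and the RNA level does not check the labels ERK5-ko. By Western blot, the paper reports far less ERK5 protein in both ERK5-ko lines than in parental cells. MAP2K5 stood at 12.9 and 13.6 RPKM in parental MDA-MB-231 and 188 and 184 RPKM in its MEK5DD libraries, but at 14.6 and 16.9 against 21.3 and 23.8 RPKM in Hs-578T. On the log2 scale the rise was 3.77 ± 0.10 in MDA-MB-231 (SE, limma adjusted p = 3.31e-10) and 0.50 ± 0.10 in Hs-578T (adjusted p = 0.00492), so the label MEK5DD stands for very different amounts of MAP2K5 RNA in the 2 lines.

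Library totals recovered from the values lay between 20248162 and 27791195 reads, and 90.4% to 93.2% of them fell on the tested genes. Replicates differed by more than counting noise, with a chi-square per degree of freedom from 3.10 to 45.7, the highest in Hs-578T parental and MEK5DD libraries. VIM lay between 1598 and 4067 RPKM and CDH1 reached 1.16 RPKM at most, while epithelial EPCAM ran from 0.0365 to 25.7 RPKM. ESR1 reached 0.120 and PGR 0.348 RPKM, and ERBB2 lay between 27.8 and 56.8 RPKM. Of 7 leukocyte markers listed, 5 stayed under 0.5 RPKM in every library, CD68 being the abundant one, with a sum of 64.7 to 71.0 RPKM in parental and 107 to 109 RPKM in MEK5DD libraries of MDA-MB-231 and 39.5 to 45.1 against 23.8 to 26.4 RPKM in parental and ERK5-ko libraries of Hs-578T. Also, of 7 endothelial markers 3 did. The summed endothelial markers moved with the groups in MDA-MB-231, from 14.9 and 15.2 RPKM in parental to 4.85 and 5.13 in ERK5-ko and 64.8 and 68.0 in MEK5DD libraries, where ESAM reached 64.8 RPKM, while CDH5, TEK and VWF stayed under 0.214 RPKM throughout. No marker of either kind is among the 87 genes. Their part in the results was not tested.

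The 87 genes were spread over 20 chromosomes and over a wide range of abundance. The mean over the 12 libraries ran from 0.30 RPKM to 2302 RPKM (COL1A2), with a median of 7.82 RPKM against 15.1 RPKM over all tested genes, and 77 genes had a mean of at least 1 RPKM. The median difference between ERK5-ko and parental was -0.69 for MDA-MB-231 and -0.86 for Hs-578T on the log2(RPKM + 0.5) scale, beside -0.04 and 0.01 over all tested genes. By limma, 79 of the 87 passed an adjusted p under 0.05 as lower in MDA-MB-231, where 10.4% of tested genes did, and 84 in Hs-578T, where 19.7% did. Without the second parental replicate of MDA-MB-231, 49 passed there. These counts follow from the choice, and no share of tested genes is given for the fit without that replicate. In RNA of whole cultures, fewer cells with a transcript and less transcript per cell cannot be told apart. ERK5-ko libraries both lay below both parental libraries for all 87 genes in either line, as they did for 38.5% of tested genes of MDA-MB-231 and 34.2% of those of Hs-578T. In comparison, 909 genes passed the limit in MDA-MB-231 alone and 1614 in Hs-578T alone, and 63 genes lay at least 0.5 above parental in both lines.

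**Figure D1:**
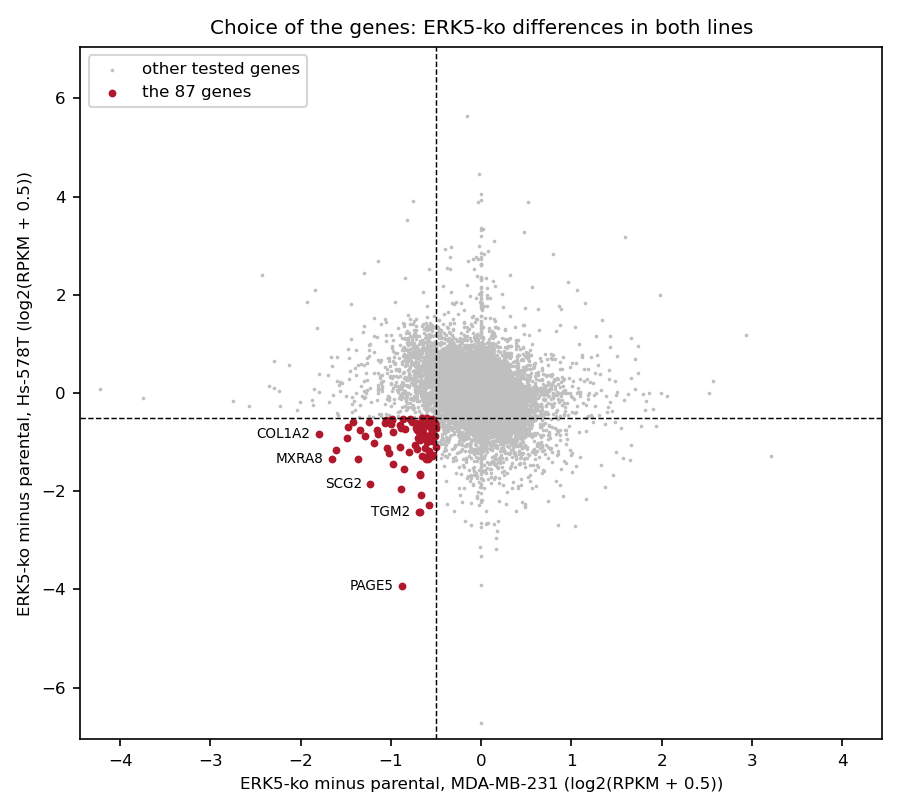
ERK5-ko minus parental on the log2(RPKM + 0.5) scale in MDA-MB-231 (x axis) and Hs-578T (y axis), 1 point per tested gene, with dashed lines at the limit of -0.5. The 87 genes (red) fill the lower left corner, and PAGE5, at -3.93 in Hs-578T, is the farthest of them from 0.

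The limit cut through a dense cloud of genes. Just inside it lay ZCCHC24, with -0.50 for MDA-MB-231 and -1.10 for Hs-578T, the phosphatase gene PPM1M with -0.51 and -0.70, and NT5DC2 with -0.66 and -0.51. Just outside lay the Wnt receptor gene FZD1 with -0.74 and -0.50, CENPBD1 with -0.50 and -0.72, and IGDCC4 with -1.20 and -0.50. With the limit at -0.4, 172 genes would have been kept, and with -0.6, 53.

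Ranked by the line in which they differed less, and among genes with a mean of at least 1 RPKM, the genes farthest below parental in both lines were MXRA8, SEMA5A, SCG2, CRIP2, SEMA6B, PTN, WWOX, IGFBP4, CXCR4, KAZALD1, LAMA4 and PAGE5. MXRA8, an immunoglobulin-domain cell surface protein, had 10.2 and 10.3 RPKM in parental MDA-MB-231 and 2.71 and 3.14 RPKM in ERK5-ko, a difference of -1.65. In Hs-578T it had 457 and 454 RPKM in parental and 208 and 154 RPKM in ERK5-ko libraries, a difference of -1.35. The differences were close in size although the levels differed widely between the lines. PAGE5, a cancer-testis gene of the X chromosome, had 15.8 and 15.8 RPKM in parental Hs-578T and 0.418 and 0.755 RPKM in ERK5-ko, but only 0.814 and 0.460 RPKM in parental MDA-MB-231, where ERK5-ko libraries held 3 and 0 reads. PAGE5 overlaps PAGE2 and a pseudogene on the same strand, so its reads may be shared with close copies.

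Matrix genes were well represented. Of 219 tested genes for collagens, laminins, integrins, matrix glycoproteins, proteoglycans and matrix enzymes, 10 were among the 87 (4.57%, beside 0.633% of all tested genes). They were COL1A2 and COL8A1, LAMA4, ITGA10, MFAP2, IGFBP3 and IGFBP4, and MMP14, LOXL1 and SERPINI1. These lists were chosen with results of these data known, so the share is a description of the set. Other genes of the same families went either way. Of all tested genes, 10.4% were called lower in MDA-MB-231 ERK5-ko and 19.7% in Hs-578T ERK5-ko. The shares called higher are not given, so the counts that follow only describe the lists. Of 29 collagen genes, 7 were called lower and 1 higher in MDA-MB-231 ERK5-ko, and 9 lower and 5 higher in Hs-578T, with median differences of 0.00 and -0.07. Of 19 integrin subunit genes, 4 were lower and 1 higher in MDA-MB-231 and 7 lower and 3 higher in Hs-578T. Of 90 matrix enzyme and inhibitor genes, 13 were lower and 18 higher in MDA-MB-231 and 34 lower and 21 higher in Hs-578T. Of 48 matrix glycoprotein genes, 9 were lower and 12 higher in MDA-MB-231 and 19 lower and 6 higher in Hs-578T.

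COL1A2 (chr7:94394561-94431232, plus strand), one chain of fibrillar type I collagen, stood at 6.81 and 6.80 RPKM in parental MDA-MB-231, at 1.98 and 1.28 RPKM in ERK5-ko and at 0.116 and 1.11 RPKM in MEK5DD. In Hs-578T it was among the most abundant transcripts, with 4496 and 5016 RPKM in parental, 2774 and 2536 RPKM in ERK5-ko and 6011 and 6770.4 RPKM in MEK5DD libraries. MEK5DD libraries thus lay under both other groups in MDA-MB-231 and over both in Hs-578T. The MEK5DD difference from parental was -2.87 ± 0.32 in MDA-MB-231 (SE, adjusted p = 2.74e-05) and 0.43 ± 0.32 in Hs-578T (adjusted p = 0.379), and the contrast between the lines was -3.30 ± 0.46 (adjusted p = 0.000192). COL8A1, a short-chain collagen of endothelial and connective tissue, followed another course. It had 67.9 and 69.1 RPKM in parental, 38.1 and 30.7 RPKM in ERK5-ko and 180.3 and 176 RPKM in MEK5DD libraries of MDA-MB-231, and 106 and 132, 83.1 and 79.8, and 133 and 147 RPKM in Hs-578T. Its rise with MEK5DD was 1.37 ± 0.12 in MDA-MB-231 (adjusted p = 4.30e-06) and 0.24 ± 0.12 in Hs-578T (adjusted p = 0.190).

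LAMA4 (chr6:112108760-112254939, minus strand) encodes the alpha chain of a laminin found in vessel and muscle basement membranes. It had 0.917 and 0.935 RPKM in parental MDA-MB-231, 0.294 and 0.244 RPKM in ERK5-ko and 11.9 and 10.2 RPKM in MEK5DD libraries. In Hs-578T it had 10.7 and 16.4 RPKM in parental, 2.87 and 3.22 RPKM in ERK5-ko and 5.24 and 7.27 RPKM in MEK5DD libraries. By qRT-PCR, the paper reports lower LAMA4 in ERK5-ko cells of MDA-MB-231 only, unlike these Hs-578T values. MEK5DD libraries were the highest in MDA-MB-231 and lay between the other groups in Hs-578T, with no overlap between groups in either line. The change with MEK5DD was 3.02 ± 0.19 in MDA-MB-231 (adjusted p = 2.61e-07), the largest rise of the 87 genes there, and -1.04 ± 0.19 in Hs-578T (adjusted p = 0.00278). The contrast of 4.06 ± 0.27 (adjusted p = 8.83e-07) was the largest between the lines, and the Hs-578T decrease had an adjusted p of 0.0653 when that line was fitted alone.

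MMP14 (chr14:22836557-22849027, plus strand), the membrane-bound collagenase that also activates other matrix metalloproteinases, was abundant in both lines. It stood at 425 and 452 RPKM in parental, 269 and 267 RPKM in ERK5-ko and 631 and 664 RPKM in MEK5DD libraries of MDA-MB-231, and at 368 and 445, 193 and 175, and 444 and 479 RPKM in Hs-578T. ERK5-ko was the lowest group in both lines, and MEK5DD was above parental by 0.56 ± 0.11 in MDA-MB-231 (adjusted p = 0.00137) and by 0.19 ± 0.11 in Hs-578T (adjusted p = 0.241). LOXL1, a lysyl oxidase-like enzyme that crosslinks elastin, had 259.8 and 281 RPKM in parental Hs-578T, 72.4 and 55.3 RPKM in ERK5-ko and 271 and 298 RPKM in MEK5DD, so that MEK5DD and parental libraries overlapped. In MDA-MB-231 it had 5.67 and 6.56, 3.61 and 3.68, and 2.41 and 2.64 RPKM, and a MEK5DD difference of -1.13 ± 0.13 (adjusted p = 2.73e-05). MFAP2, a component of elastic microfibrils, had the same order in MDA-MB-231, with 5.05 and 5.13, 2.81 and 3.32, and 0.619 and 0.705 RPKM (MEK5DD -2.27 ± 0.13, adjusted p = 1.15e-07). In Hs-578T it had 360.0 and 326 RPKM in parental, 201 and 171 RPKM in ERK5-ko and 441 and 347 RPKM in MEK5DD libraries.

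The insulin-like growth factor binding proteins IGFBP3 and IGFBP4 were both among the 87 and behaved differently with MEK5DD. IGFBP4 had 589 and 596 RPKM in parental, 273 and 330.5 RPKM in ERK5-ko and 247 and 251 RPKM in MEK5DD libraries of MDA-MB-231, and 687 and 705, 282 and 231, and 365 and 331 RPKM in Hs-578T. Its MEK5DD differences were -1.25 ± 0.12 in MDA-MB-231 (adjusted p = 7.81e-06) and -1.0 ± 0.12 in Hs-578T (adjusted p = 0.00021). IGFBP3 had 40.4 and 40.8, 24.1 and 25.7, and 176 and 169 RPKM in MDA-MB-231, and 480.5 and 459.6, 299 and 281, and 307 and 378 RPKM in Hs-578T. It rose with MEK5DD by 2.07 ± 0.10 in MDA-MB-231 (adjusted p = 3.45e-08) and was lower in Hs-578T, with a difference of -0.47 ± 0.10 (adjusted p = 0.0076, and 0.102 with that line fitted alone). ITGA10, a collagen-binding integrin subunit, was low, at 0.616 to 1.55 RPKM in MDA-MB-231 and 1.99 to 6.31 RPKM in Hs-578T. Its MEK5DD difference did not pass in either line (adjusted p = 0.110 and 0.621). The serpin gene SERPINI1 lay between 1.93 and 4.52 RPKM in MDA-MB-231 and between 7.71 and 20.6 RPKM in Hs-578T, with MEK5DD differences of 0.39 ± 0.12 (adjusted p = 0.0225) and -0.53 ± 0.12 (adjusted p = 0.00918). Neither call was stable. The limma adjusted p was 0.0506 by voom, 0.208 without the second parental and 0.180 without the second MEK5DD replicate in the first line, and in Hs-578T it was 0.0576 with that line alone and 0.0590 without its second parental replicate.

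**Figure D2:**
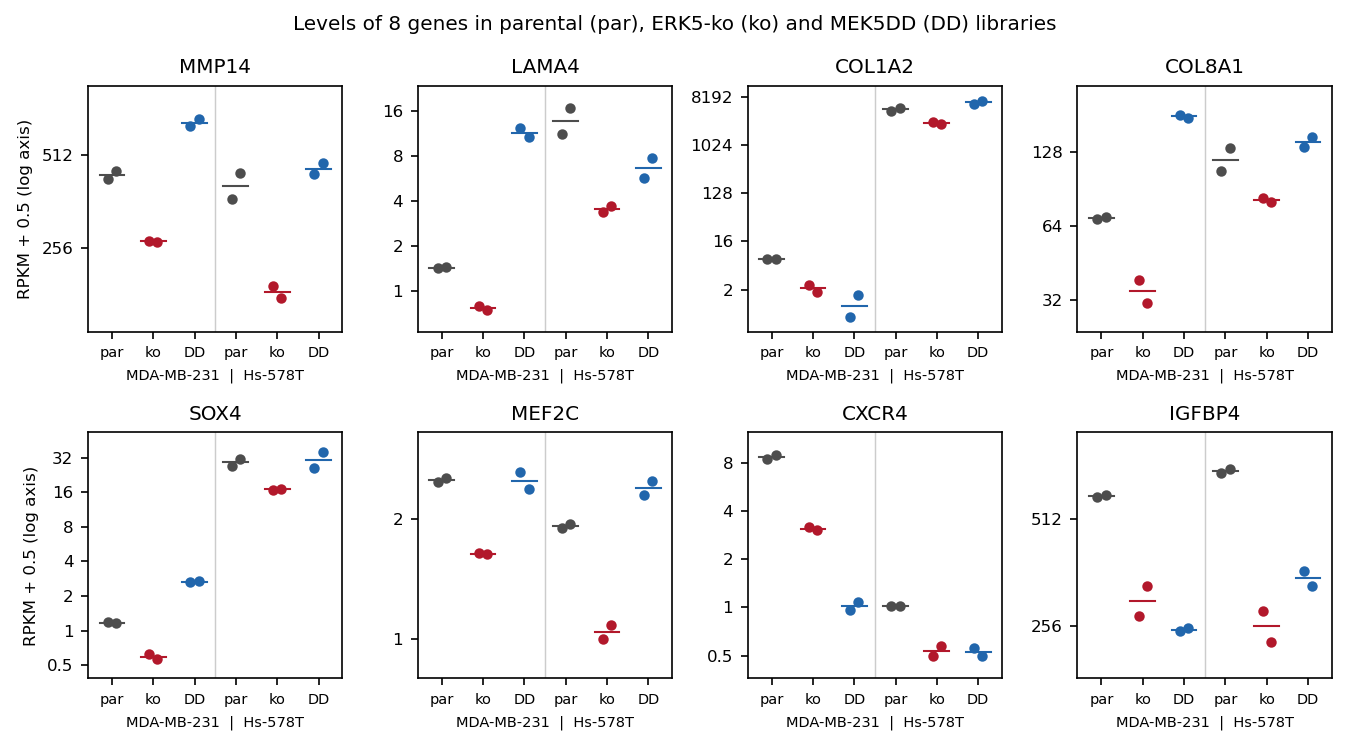
RPKM + 0.5 on a log axis for 8 of the genes in the parental (par), ERK5-ko (ko) and MEK5DD (DD) libraries of each line, with 2 replicate points per group and a bar at their geometric mean. ERK5-ko is below parental in every panel and line, while MEK5DD of MDA-MB-231 is above parental for LAMA4 and below it for COL1A2 and CXCR4.

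Transmembrane semaphorins, which guide axons and also act on tumour and endothelial cells, gave 2 of the 12 leading genes. SEMA5A (chr5:9035026-9546075, minus strand) had 1.02 and 0.793 RPKM in parental MDA-MB-231, 0.0514 and 0.0348 RPKM in ERK5-ko and 0.988 and 0.951 RPKM in MEK5DD libraries. In Hs-578T it had 37.5 and 71.4, 22.3 and 18.2, and 87.9 and 134.1 RPKM, with parental replicates far apart. MEK5DD libraries overlapped parental in MDA-MB-231 (0.07 ± 0.26, adjusted p = 0.875) and lay above both parental libraries in Hs-578T (1.06 ± 0.26, adjusted p = 0.0136). Without the first parental replicate of Hs-578T the latter difference was 0.60 (adjusted p = 0.0796). SNHG18, a long non-coding RNA that starts beside SEMA5A (chr5:9546200-9550609), passed the same limits among genes that are not protein-coding, with differences of -2.16 and -0.84. SEMA6B had 46.3 and 42.5, 20.4 and 22.2, and 8.12 and 8.0 RPKM in parental, ERK5-ko and MEK5DD libraries of MDA-MB-231, and 33.6 and 43.6, 19.9 and 15.1, and 21.0 and 22.9 RPKM in Hs-578T. Its MEK5DD differences were -2.39 ± 0.14 (adjusted p = 1.81e-07) and -0.79 ± 0.14 (adjusted p = 0.00268, and 0.0629 with Hs-578T fitted alone), so both labels lay under parental in both lines. In all, 2 of 60 tested axon guidance genes were among the 87, beside 0.633% of all tested genes.

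Secreted factors showed several courses. PTN, the heparin-binding growth factor pleiotrophin, had 5.58 and 5.39, 2.60 and 2.30, and 9.09 and 10.6 RPKM in parental, ERK5-ko and MEK5DD libraries of MDA-MB-231, and 104 and 93.8, 46.3 and 38.9, and 121 and 116 RPKM in Hs-578T. MEK5DD was the highest group in both lines, with differences from parental of 0.79 ± 0.11 (adjusted p = 0.00021) and 0.26 ± 0.11 (adjusted p = 0.133). KAZALD1, a secreted protein related to the insulin-like growth factor binding proteins, had 9.64 and 10.4, 4.91 and 5.35, and 15.1 and 18.2 RPKM in MDA-MB-231, and 28.4 and 28.8, 12.9 and 13.5, and 30.1 and 28.2 RPKM in Hs-578T. Its parental and MEK5DD libraries overlapped in Hs-578T and not in MDA-MB-231 (0.70 ± 0.11, adjusted p = 0.000292). SCG2, a granin of secretory granules, had 60.7 and 68.4 RPKM in parental Hs-578T, 19.3 and 15.8 RPKM in ERK5-ko and 18.3 and 18.2 RPKM in MEK5DD, with MEK5DD inside the range of ERK5-ko. In MDA-MB-231 it had 3.74 and 3.21, 1.15 and 1.23, and 4.51 and 4.0 RPKM. The MEK5DD differences were 0.26 ± 0.12 (adjusted p = 0.117) and -1.79 ± 0.12 (adjusted p = 6.45e-06), with a contrast between the lines of 2.06 ± 0.18 (adjusted p = 6.41e-06).

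Receptors and cell surface proteins also took different courses. CXCR4, the receptor of the chemokine CXCL12, had 7.92 and 8.41 RPKM in parental MDA-MB-231, 2.65 and 2.54 RPKM in ERK5-ko and 0.469 and 0.577 RPKM in MEK5DD libraries, a MEK5DD difference of -3.08 ± 0.11 (adjusted p = 3.71e-09). In Hs-578T it was barely expressed, at 0.519 and 0.515 RPKM in parental libraries and 0 to 3 reads in every other library. GPRC5C, an orphan G protein-coupled receptor, had 1.79 and 2.03, 0.714 and 0.484, and 0 and 0.0242 RPKM in MDA-MB-231, and 3.85 and 4.02, 2.12 and 1.83, and 1.03 and 0.949 RPKM in Hs-578T. It lay lowest in MEK5DD in both lines (-2.23 ± 0.12, adjusted p = 9.40e-08, and -1.57 ± 0.12, adjusted p = 1.24e-05). CD24, a glycosylated surface antigen, went the other way. It had 1.82 and 1.45, 1.014 and 0.844, and 2.78 and 2.61 RPKM in MDA-MB-231, and 86.9 and 78.6, 37.7 and 35.1, and 118 and 129 RPKM in Hs-578T, and rose with MEK5DD by 0.59 ± 0.12 (adjusted p = 0.00174) and 0.57 ± 0.12 (adjusted p = 0.00497).

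Of 29 tested genes of the ERK5 cascade and its target genes, the 87 held SOX4 and MEF2C, beside 0.633% of all tested genes. SOX4 (chr6:21592769-21598619, plus strand), a transcription factor active in progenitor and mesenchymal states, had 0.685 and 0.658, 0.121 and 0.0685, and 2.16 and 2.18 RPKM in parental, ERK5-ko and MEK5DD libraries of MDA-MB-231. In Hs-578T it had 26.8 and 30.9, 16.4 and 16.4, and 25.3 and 35.3 RPKM. MEK5DD was above parental by 1.19 ± 0.15 in MDA-MB-231 (adjusted p = 5.44e-05), and its libraries enclosed the parental ones in Hs-578T (0.05 ± 0.15, adjusted p = 0.832). MEF2C (chr5:88717117-88904257, minus strand), a MADS-box transcription factor that ERK5 phosphorylates, had 1.99 and 2.04, 1.14 and 1.13, and 2.12 and 1.88 RPKM in MDA-MB-231, and 1.39 and 1.44, 0.501 and 0.585, and 1.80 and 2.0 RPKM in Hs-578T. MEK5DD libraries stood around parental in MDA-MB-231 (-0.01 ± 0.10, adjusted p = 0.979) and above it in Hs-578T (0.32 ± 0.10, adjusted p = 0.0450). The Hs-578T pass was not stable. The limma adjusted p was 0.0745 with a pseudocount of 0.1, 0.120 with that line fitted alone and 0.104 by voom. Leaving out 1 Hs-578T parental or MEK5DD replicate gave differences of 0.26 to 0.38. Over the 29 genes as a list, 6 were called lower and 2 higher in MDA-MB-231 ERK5-ko, 5 lower and 6 higher in Hs-578T ERK5-ko, 9 higher and 3 lower in MDA-MB-231 MEK5DD, and 5 higher and 3 lower in Hs-578T MEK5DD. EGR1, an immediate early transcription factor and the 1 gene from the list of 20 ERK1/2 feedback genes, had 3.52 and 3.43, 1.78 and 2.21, and 7.89 and 7.44 RPKM in MDA-MB-231. MEK5DD lay 1.04 above parental there, without overlap of the libraries, and this difference was not called. The fit pooled the spread of each gene over both lines, so its error includes the Hs-578T replicates given next. In Hs-578T EGR1 had 25.2 and 10.2, 3.99 and 5.79, and 9.15 and 20.7 RPKM. Those replicates were so far apart that MEK5DD and parental could not be separated (-0.22 ± 0.39, adjusted p = 0.737).

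Short stretches of promoter are printed for EGR1, SOX4 and MARCKSL1 and for the matrix genes ITGA10, IGFBP4 and MFAP2, as examples of windows that held a searched motif, from RefSeq windows of GRCh38.p14 that run from 250 bases before to 50 bases after a gene's start. Capitals mark the motif: CArG boxes of serum response factor in EGR1, MEF2 matches in MARCKSL1 and ITGA10, GGAATG (TEAD) in SOX4, the reverse complement of CCACACCC (KLF) in IGFBP4, and TGANTCA (AP-1) in MFAP2. The stretches of MARCKSL1, ITGA10 and SOX4 lie within the gene's span in the deposited table, whose start differs from that of RefSeq. The start of MFAP2 differs as well. It is at 16980835 in the deposited table, and the printed stretch lies more than 250 bases before it.
EGR1, chr5:138465344-138465435, plus strand: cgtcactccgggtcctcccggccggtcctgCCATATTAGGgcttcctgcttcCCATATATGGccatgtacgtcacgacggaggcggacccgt
MARCKSL1, chr1:32336245-32336274, minus strand: ctccgggcgcTTATATATAGgcagctcggc
ITGA10, chr1:145910108-145910137, minus strand: ccttccaactTTATTTTTAGctgccattgg
SOX4, chr6:21593561-21593590, plus strand: gctctgtaaattGGAATGaggtcagatttg
IGFBP4, chr17:40443372-40443439, plus strand: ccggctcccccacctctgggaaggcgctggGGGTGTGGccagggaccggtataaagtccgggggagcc
MFAP2, chr1:16981607-16981758, minus strand: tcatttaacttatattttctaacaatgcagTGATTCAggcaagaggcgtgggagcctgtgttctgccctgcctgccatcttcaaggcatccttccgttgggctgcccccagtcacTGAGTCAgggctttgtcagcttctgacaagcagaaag

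Windows were found for 70 of the 87 genes and 10868 of the 13737 tested genes, 1 window per gene, and 8 motifs were searched on both strands. MEF2 matches were in 3 of the 70 windows (MARCKSL1, PLEKHS1 and ITGA10, 4.29%), against 1.47% of all windows. GGAATG was in 15 (21.4%, against 11.1%), among them SOX4, CRIP2 and NPRL3, and TGANTCA in 7 (10%, against 4.64%), among them PTN and MFAP2. CCACACCC was in 4 (5.71%, against 2.95%), the cyclic AMP element TGACGTCA in 3 (4.29%, against 3.17%), the CArG box in EGR1 alone (1.43%, against 1.11%), CAGGTG in 12 (17.1%, against 17.9%) and TATAAA in 4 (5.71%, against 5.78%). The A/T-rich MEF2, CArG and TATA patterns can overlap. A match is a run of letters and no evidence of binding, and these shares were not tested. The windows of CST1, SEMA6B, COL1A2, COL8A1, CELSR1, TGM2, SCG2, CDC42EP5, PDGFRL, CFAP54, GPRC5C, CPNE7, GDAP1, IMPA2, TMEM100 and other members without a match are not analysed here. The windows of the 70 genes had a median GC content of 66.3%, against 65.0% over all windows.

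The question put to the MEK5DD libraries was whether the 87 genes, low in ERK5-ko, are high under the label MEK5DD. That is the usual name of an active form of the kinase above ERK5. The parental libraries serve both comparisons, so the MEK5DD differences from parental are not independent of the choice. In MDA-MB-231, 37 of the 87 genes were called higher in MEK5DD than in parental (42.5%, where 17.5% of tested genes were) and 29 lower (33.3%, where 23.8% were). In Hs-578T, 10 were called higher (11.5%, where 6.44% were) and 33 lower (37.9%, where 17.0% were). The median MEK5DD difference over the 87 genes was 0.21 in MDA-MB-231, from -3.44 (CST1) to 3.02 (LAMA4), and -0.31 in Hs-578T, with SCG2 lowest at -1.79, beside -0.01 and -0.08 over all tested genes. Both MEK5DD libraries lay above both parental libraries for 46 genes in MDA-MB-231 (52.9%, against 38.5% of tested genes) and 16 in Hs-578T (18.4%, against 15.7%), and below them for 35 (40.2%, against 41.6%) and 48 (55.2%, against 34.2%). When Hs-578T was fitted alone, with 3 residual degrees of freedom, 2 genes were called higher and 16 lower. Shares of all tested genes are not given for this fit or those of the next sentence. These numbers show only how the calls of the 87 genes moved. The number called higher in Hs-578T was 5 without its first parental, 4 without its second parental and 6 without its second MEK5DD replicate.

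Placed on a scale from 0 at the ERK5-ko mean to 1 at the parental mean of the same line, MEK5DD stood at a median of 1.27 for MDA-MB-231 and 0.69 for Hs-578T. In MDA-MB-231, 50 of the genes lay past parental, 23 below ERK5-ko and 14 between. In Hs-578T, 48 lay between, 25 past parental and 14 below ERK5-ko. Both ends of this scale are means of libraries used in the choice. No share over all tested genes is given beside these counts, so they only describe the 87 genes. Both MEK5DD libraries were above both ERK5-ko libraries for 63 of the 87 genes in MDA-MB-231 (72.4%, against 42.6% of tested genes) and 65 in Hs-578T (74.7%, against 28.3%). The ERK5-ko libraries entered the choice, so this count carries the choice within it. Median levels over the 87 genes, as log2(RPKM + 0.5), were 1.91 in parental, 1.07 in ERK5-ko and 2.25 in MEK5DD of MDA-MB-231, and 3.74, 2.52 and 2.97 in Hs-578T.

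**Figure D3:**
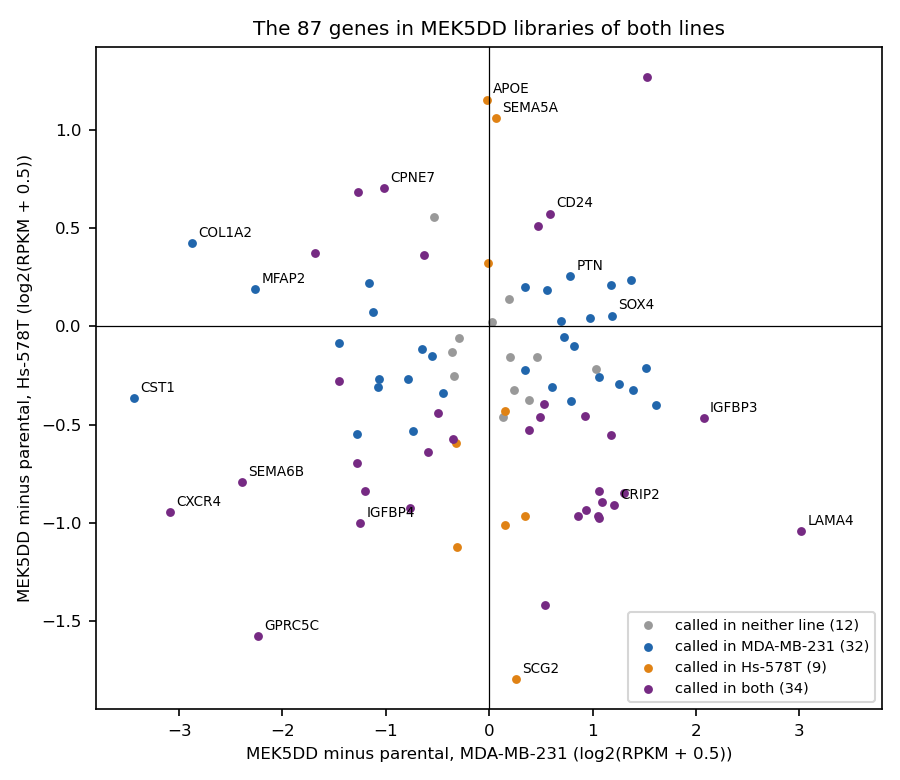
MEK5DD minus parental on the log2(RPKM + 0.5) scale in MDA-MB-231 (x axis) and Hs-578T (y axis), 1 point per gene of the 87, coloured by the line in which limma called it. Of them, 34 were called in both lines (39.1%, against 10.9% of tested genes), 32 in MDA-MB-231 alone (36.8%, against 30.4%), 9 in Hs-578T alone (10.3%, against 12.5%) and 12 in neither (13.8%, against 46.2%), and LAMA4 lies farthest to the right.

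Taking both lines together, 3 genes were called higher with MEK5DD in both (3.45%, against 1.30% of tested genes, CD24 and NT5DC2 among them) and 11 lower in both (12.6%, against 3.67%). Another 16 were higher in MDA-MB-231 but lower in the other line (18.4%, against 4.09%), and 4 the reverse (4.60%, against 1.86%). NT5DC2 had 67.2 and 79.3, 45.0 and 47.3, and 99.3 and 104 RPKM in MDA-MB-231 and 200.3 and 165, 136 and 119.9, and 280.3 and 241 RPKM in Hs-578T, with rises of 0.47 ± 0.12 (adjusted p = 0.00922) and 0.51 ± 0.12 (adjusted p = 0.0119). Without the first parental replicate of MDA-MB-231 the rise there was 0.35 (adjusted p = 0.105), and without the second parental replicate of Hs-578T the rise there was 0.37 (adjusted p = 0.0804). By sign alone, 14 genes were above parental in both lines and 26 below in both.

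The 11 genes lower with MEK5DD in both lines were ARSE, CLEC3B, CXCR4, GPRC5C, IGFBP4, MARCKSL1, PLEKHS1, PTGER4, SEMA6B, SEPT4 and TGM2. For them both labels lay under parental. TGM2, the tissue transglutaminase that crosslinks matrix proteins, had 643 and 681 RPKM in parental, 405 and 415 RPKM in ERK5-ko and 466 and 472 RPKM in MEK5DD libraries of MDA-MB-231, and 17.8 and 20.03, 3.49 and 2.76, and 13.8 and 13.8 RPKM in Hs-578T. Its MEK5DD differences were -0.50 ± 0.10 (adjusted p = 0.00233) and -0.44 ± 0.10 (adjusted p = 0.010), between ERK5-ko and parental in both lines. PLEKHS1 was scarce, at 1.115 RPKM or less in every library, with 3 and 2 reads in the Hs-578T MEK5DD libraries. PTGER4, the receptor EP4 for prostaglandin E2, had 6.75 and 7.34, 4.09 and 3.20, and 5.10 and 5.79 RPKM in MDA-MB-231 and 35.2 and 36.2, 25.7 and 23.8, and 22.1 and 25.8 RPKM in Hs-578T (-0.35 ± 0.13, adjusted p = 0.0460, and -0.57 ± 0.13, adjusted p = 0.00778).

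The genes that rose with MEK5DD in MDA-MB-231 but fell in Hs-578T were BFSP1, CCDC88C, CRIP2, CYP26B1, DCLK1, GDAP1, IGFBP3, LAMA4, LRRC20, NPRL3, PDGFRL, RNF166, SERPINI1, SPATA33, THRB and WWOX. CRIP2, a LIM-domain protein, had 2.73 and 2.55, 0.517 and 0.534, and 6.55 and 7.0 RPKM in parental, ERK5-ko and MEK5DD libraries of MDA-MB-231, and 81.3 and 72.1, 38.9 and 29.7, and 42.5 and 38.7 RPKM in Hs-578T. MEK5DD of Hs-578T thus stood near ERK5-ko, while MEK5DD of MDA-MB-231 was far above parental (1.21 ± 0.13, adjusted p = 1.75e-05, against -0.91 ± 0.13, adjusted p = 0.000631). WWOX, an oxidoreductase with WW domains that spans a fragile site, had 2.95 and 2.62, 0.721 and 1.19, and 6.33 and 6.35 RPKM in MDA-MB-231, and 7.42 and 8.18, 3.8 and 3.44, and 3.69 and 3.73 RPKM in Hs-578T. The reverse pattern was seen in CDC42EP5, CPNE7, DENND2A and PPM1M. PPM1M had 13.4 and 13.8, 8.44 and 10.6, and 5.26 and 5.47 RPKM in MDA-MB-231, and 16.6 and 14, 10.1 and 8.26, and 26.4 and 23.2 RPKM in Hs-578T. By the test of the contrast itself, the MEK5DD effect differed between the lines for 56 of the 87 genes (64.4%, where 39.6% of tested genes did), 37 of them toward MDA-MB-231 and 19 toward Hs-578T (21.3% and 18.2% of tested genes).

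**Figure D4:**
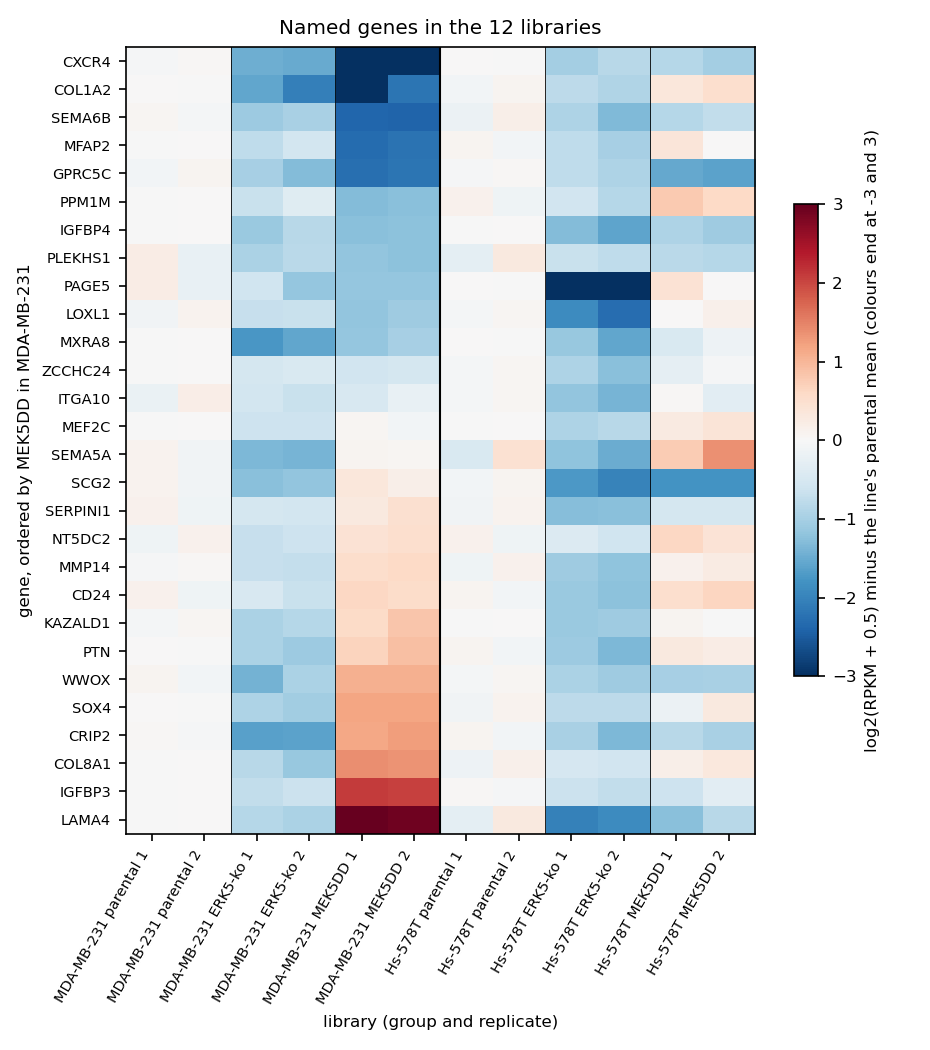
Genes named by rule (28 of them) in the 12 libraries, coloured by log2(RPKM + 0.5) minus the parental mean of the same line, with genes ordered by MEK5DD in MDA-MB-231. The ERK5-ko columns are blue in both lines, the MEK5DD columns of MDA-MB-231 run from dark blue (CXCR4) to dark red (LAMA4), and in those of Hs-578T SCG2 is the darkest blue and SEMA5A the reddest.

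The 4 MEK5DD libraries entered the choice through the filter on low values alone, and they allow a comparison of the lines. Of the 87, 50 were called lower in MDA-MB-231 MEK5DD than in Hs-578T MEK5DD (57.5%, where 31.1% of tested genes were) and 26 higher (29.9%, where 47.0% were), with a median difference of -0.66 against 0.22 over all tested genes. The genes lower in MDA-MB-231 were led by COL1A2 at -12.65 ± 0.32 (adjusted p = 1.17e-11), MFAP2 at -8.40 ± 0.13 (adjusted p = 3.49e-13), LOXL1 at -6.56 ± 0.13 (adjusted p = 1.40e-12), SEMA5A at -6.21 ± 0.26 (adjusted p = 8.56e-10) and MXRA8 at -6.17 ± 0.14 (adjusted p = 5.24e-12). Those higher in MDA-MB-231 were led by CCDC88C at 5.49 ± 0.21 (adjusted p = 3.35e-10), TGM2 at 5.04 ± 0.10 (adjusted p = 2.07e-12) and LAPTM5 at 4.28 ± 0.23 (adjusted p = 6.94e-09). MMP14, COL8A1 and LAMA4 were closer between the lines, with differences of 0.49, 0.35 and 0.79. This comparison holds the line as well as the label, and the parental libraries already differed. Between the parental lines TGM2 differed by 5.09, LAPTM5 by 5.01 and CCDC88C by 3.48, and COL1A2 by -9.35, MFAP2 by -5.94, LOXL1 by -5.36, SEMA5A by -5.22 and MXRA8 by -5.41. LAMA4 stood apart, with -3.27 between the parental lines and 0.79 between the MEK5DD libraries.

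Position on the chromosomes was not part of the choice. Chromosome 16 held 11 of the 87 genes among 617 tested (1.78%), the highest share of any chromosome, and chromosomes 4, 11 and 21 held 0 of 509, 794 and 132. Of these 11, 7 start past 75 Mb of chromosome 16, near the end of its long arm: WWOX (chr16:78099413-79212667), EMC8 (chr16:85771758-85799608), ZCCHC14 (chr16:87406246-87492045), RNF166 (chr16:88696495-88706421), CTU2 (chr16:88706463-88715386), CPNE7 (chr16:89575768-89597246) and SPATA33 (chr16:89657802-89671272). They were 7 of 95 tested genes there (7.37%), against 0.586% of tested genes elsewhere. The other 88 tested genes of that stretch shifted in the same directions. Their median difference was -0.34 in MDA-MB-231 ERK5-ko, -0.34 in Hs-578T ERK5-ko, 0.48 in MDA-MB-231 MEK5DD and -0.39 in Hs-578T MEK5DD, against -0.03, 0.03, -0.01 and -0.07 on other chromosomes. Tested genes on the rest of chromosome 16 had medians of -0.06, -0.15, 0.04 and -0.29, and 83.6% of them were below 0 in MEK5DD of Hs-578T (93.2% past 75 Mb). In MDA-MB-231 ERK5-ko 81 of the 88 were below 0 (92.0%, against 55.7% on other chromosomes), and in its MEK5DD libraries 76 were above 0 (86.4%, against 47.0%). The stretch was chosen after its values were seen, and its shift was not tested.

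Of the 7 genes, 6 followed their neighbours in the MEK5DD libraries, and CPNE7 did not.
EMC8, a subunit of the membrane protein insertion complex of the endoplasmic reticulum, had 13.6 and 14.1, 7.84 and 8.64, and 21.5 and 21.2 RPKM in parental, ERK5-ko and MEK5DD libraries of MDA-MB-231, and 28.9 and 24.5, 17.8 and 16.8, and 22.5 and 20.3 RPKM in Hs-578T. Its MEK5DD difference in MDA-MB-231 was 0.60, beside the 0.48 of the stretch. RNF166 and CTU2, which lie side by side on opposite strands, had 0.49 and 0.79. CPNE7, a calcium-dependent membrane-binding protein, had 0.647 and 1.22, 0.354 and 0.400, and 0.0831 and 0.324 RPKM in MDA-MB-231, and 4.33 and 3.90, 0.305 and 0.412, and 7.99 and 6.14 RPKM in Hs-578T, and so lay apart from its neighbours in both lines. When the median of the other tested genes within 2.5 Mb was subtracted from each ERK5-ko difference, 64 of the 87 genes kept both differences at or under -0.5, and 10 other genes joined them. The 64 include ARSE and SOX4, which had under 5 such neighbours and from which nothing was subtracted. WWOX was kept, and EMC8, ZCCHC14, RNF166, CTU2, CPNE7 and SPATA33 were not. The genes AXIN1, NPRL3 and RHBDF1 at the other end of chromosome 16 also dropped out, as did NT5DC2 and PPM1M on chromosome 3, IGFBP3 and SERPINI1. The cause of the shift was not tested.

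**Figure D5:**
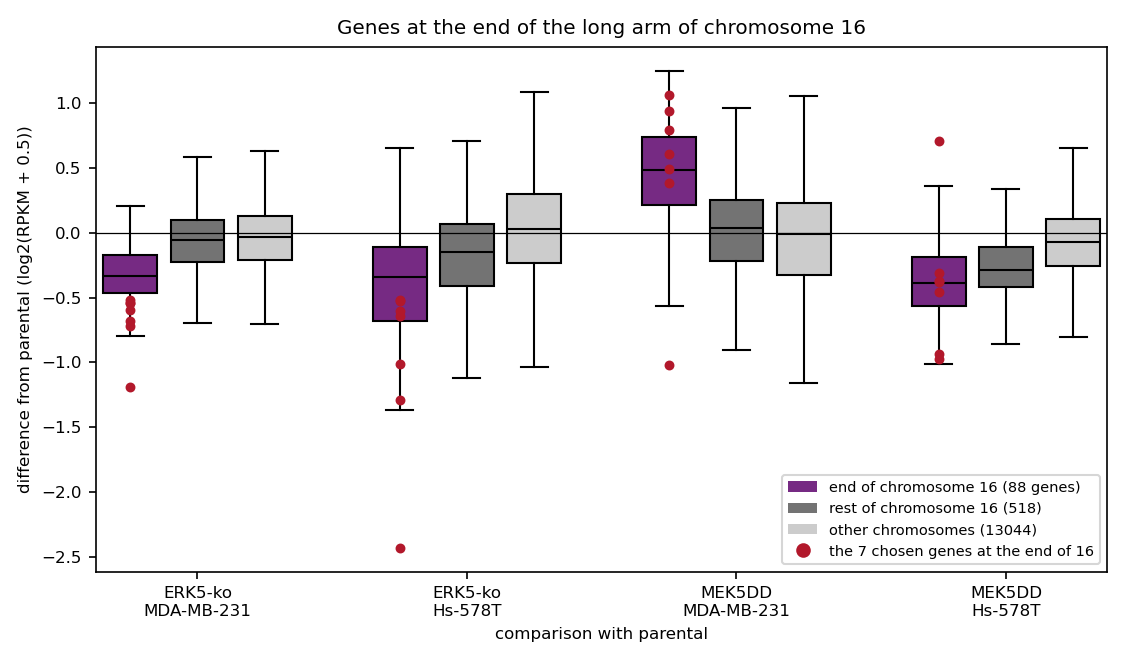
Differences from parental on the log2(RPKM + 0.5) scale for tested genes other than the 87, in boxes (median, quartiles and whiskers to 1.5 times the interquartile range) for chromosome 16 past 75 Mb, the rest of chromosome 16 and other chromosomes, with the 7 chosen genes of the stretch as red points. The purple boxes lie under 0 in both ERK5-ko comparisons and in MEK5DD of Hs-578T, and over 0 in MEK5DD of MDA-MB-231.

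Cell cycle genes, none of which is among the 87, went in opposite directions in the lines. Of 47 tested, 36 were called lower in MDA-MB-231 ERK5-ko, where 10.4% of tested genes were. In Hs-578T ERK5-ko, 47 were called higher (share of tested genes not given). With MEK5DD, 26 were called higher in MDA-MB-231 (17.5% of tested genes were) and 38 lower in Hs-578T (17% were). Their part in the values of the 87 genes was not tested. Of the 35 fixed lists, 17 held at least 1 of the 87 genes and 18 held none, among them the lists of proteoglycans (22 tested genes), epithelial genes (24), EMT and mesenchymal genes (16), YAP/TEAD genes (27) and cytosolic ribosomal protein genes (80). Single members came from the lists of Wnt genes (AXIN1, 1 of 41), solute carriers (SLC2A10, 1 of 227) and interferon-stimulated genes (IFI44L, 1 of 39).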

How the data were processed

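RNA of 12 libraries was sequenced from 6 groups of 2, grouped by cell line and label. The authors deposited RPKM values per gene, and per the labels libraries came from a stranded mRNA kit and reads were processed with bcl2fastq, Trimmomatic 0.32, TopHat2 2.1.1, R 3.3.1 and DESeq2 1.12.4 on GRCh38. The counting settings are not given in the sources used here. Here the RPKM values were tested as log2(RPKM + 0.5) with limma 3.58.1 (R 4.3.3), as 6 group means with a variance trend and 6 residual degrees of freedom. Benjamini-Hochberg adjustment ran over 13737 genes within each comparison, and called means an adjusted p under 0.05. Changes of genes near or under 0.5 RPKM are understated on this scale. An exact permutation test of 2 against 2 cannot give a p under 0.333.

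The RPKM values gave back whole reads for all 13737 genes (within 1e-06 reads), while totals up to 1% off gave whole reads for 0 of 500 genes. Of the 87 genes, 8 had at most 3 reads in each library of some group, and this floor covers counting error only. Of the genes, 13 overlap another listed gene on the same strand.

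Named genes were the 12 with the largest difference in the line where it was smaller, at a mean of at least 1 RPKM, the 4 highest and 4 lowest with MEK5DD among genes of the same sign in both lines (ranked by the value nearer 0), the 3 nearest the limit on each side, and all members of matrix, axon guidance, ERK5 and SOX lists, with MAPK7 and MAP2K5 as checks. TGM2, EGR1, EMC8, CPNE7, PTGER4, MARCKSL1, CST1, LAPTM5, CCDC88C and other genes outside this rule were named after their values were seen. Of the genes the rule names, 1 is not reported here. The 87 genes and the lists were chosen with earlier results of these data known. Same-numbered replicates deviated together, with correlations from 0.107 to 0.541 over 6 pairs of groups within lines, and a second fit took the passage order inside a line as a replicate block. The tests were checked on simulated data. Python 3.11.15 with numpy 2.4.6, pandas 2.3.3 and matplotlib 3.10.9 was used.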

Additional observations from a re-analysis of the deposited data

Results flagged for a closer look

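For 6 of the 29 genes named by rule, MEK5DD differed from parental in opposite directions in the 2 lines, with both differences called and the contrast of the lines passing limma's test (adjusted over all tested genes). The contrast, MDA-MB-231 minus Hs-578T on the log2(RPKM + 0.5) scale, was 4.06 for LAMA4 (adjusted p = 8.83e-07), 2.54 for IGFBP3 (adjusted p = 3.14e-07), 2.12 for CRIP2 (adjusted p = 6.47e-06), 2.04 for WWOX (adjusted p = 1.99e-05) and 0.92 for SERPINI1 (adjusted p = 0.00141), all with a rise in MDA-MB-231 and a fall in Hs-578T. It was -1.95 for PPM1M (adjusted p = 1.94e-05), which fell in MDA-MB-231 and rose in Hs-578T. With Hs-578T fitted alone, 4 of the 6 lost the call in that line (adjusted p = 0.0653 for LAMA4, 0.102 for IGFBP3, 0.0576 for SERPINI1 and 0.0609 for PPM1M), and SERPINI1 lost its MDA-MB-231 call by voom (adjusted p = 0.0506) and without the second parental (0.208) or second MEK5DD replicate (0.180). MAP2K5 RNA, the label's own gene, rose by 3.77 in the former line and 0.50 in the latter, and its part in them was not tested.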

How the results depend on the processing

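The number of genes chosen depended on the scale and the limit. It was 194 with a pseudocount of 0.1 and 51 with 1, and 172, 53 and 7 with the limit at -0.4, -0.6 and -1. Leaving out 1 parental or ERK5-ko replicate gave 84 to 108, of which 76 to 85 were among the 87. Median-ratio scaling gave 74 (69 of them among the 87), quantile normalization 65 (60) and subtraction of neighbouring genes, chosen after seeing the data, 74 (64).

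The median over the 87 genes moved with the scale. In ERK5-ko of MDA-MB-231 it was -0.96 with a pseudocount of 0.1, -0.59 with 1, -0.62 after median-ratio scaling, -0.59 after quantile normalization and -0.98 by voom on recovered reads (chosen after seeing the data), and in Hs-578T ERK5-ko -1.14, -0.69 and, by voom, -1.14. In MEK5DD of MDA-MB-231 it was 0.29 with 0.1, 0.24 with a filter at 1 RPKM, 0.24 and 0.32 after the scalings, 0.30 by voom and 0.15 without the 7 genes of chromosome 16 (chosen after seeing the data), and in MEK5DD of Hs-578T -0.22 and -0.22 after the scalings. Between the MEK5DD libraries it was -0.81, -0.57, -0.80, -0.90, -0.73, -0.81 and -0.80 under pseudocounts 0.1 and 1, the filter, the scalings, voom and without those 7 genes. With fold limits of 1.5 and 0.5, 18 and 32 genes were lower in ERK5-ko, 19 lower in MEK5DD of MDA-MB-231. Likewise 5 were higher and 7 lower in MEK5DD of Hs-578T. Within Hs-578T alone, 2 were higher and 16 lower. Shares of all tested genes are not given for these settings or those that follow, so the counts show only how they moved.

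Leaving out 1 replicate gave 49 to 58 genes called lower in ERK5-ko of MDA-MB-231 (49 without its second parental replicate) and 67 to 76 in Hs-578T, 31 to 35 higher and 25 to 28 lower in MEK5DD of MDA-MB-231. There were 4 to 8 higher and 28 to 39 lower in MEK5DD of Hs-578T. The medians ran from -0.73 to -0.68 and from -0.89 to -0.79 for ERK5-ko of MDA-MB-231 and Hs-578T, from 0.18 to 0.27 and from -0.36 to -0.26 for MEK5DD, and from -0.77 to -0.59 between the MEK5DD libraries. With the replicate block, 83 and 86 genes were lower in ERK5-ko, 38 higher and 30 lower in MEK5DD of MDA-MB-231, while 11 were higher and 36 lower in MEK5DD of Hs-578T, and no call of a named gene changed. By voom on recovered reads, 70 and 85 genes were lower in ERK5-ko, 35 higher and 28 lower in MEK5DD of MDA-MB-231, while 9 were higher and 32 lower in MEK5DD of Hs-578T. Differences near 0 turned sign. MEF2C in MDA-MB-231 was at 0.022 and 0.12 after the scalings. Leaving out 1 replicate gave -0.079 to 0.063 for MEF2C and a lowest value of -0.049 for SEMA5A in MDA-MB-231, and -0.019 to 0.073 for KAZALD1, -0.30 to 0.043 for ITGA10 and a lowest value of -0.18 for SOX4 in Hs-578T. The cause was not tested. At most 3 reads in each library of some group limit 8 of the 87 genes.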
